A study of Mus musculus with 8 samples.

Results

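The clustered protocadherin genes of mouse chromosome 18 were examined for DNA methylation in nephron progenitors, the cap mesenchyme cells from which the nephrons of the kidney form. Members were CpGs read 10 times or more in each of the 8 libraries that lay between 36900000 and 37870000 of chromosome 18 (mm10) and could be assigned to genes whose symbols begin with Pcdha, Pcdhb or Pcdhg. There were 361 such CpGs among 441994 autosomal CpGs of the same depth, 110 in the alpha, 28 in the beta and 223 in the gamma cluster, and 50 further CpGs of the region lay outside these genes. They fell into 47 tiles of 1 kb, of which 34 held the 3 CpGs and the mixture of methylated and unmethylated reads needed for a test.

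The assay was reduced representation bisulfite sequencing, which cuts DNA at CCGG sites and so reads mainly CpG-rich stretches. All embryos came from CD1 outbred mothers, 8 to 10 weeks old, mated with males carrying Tg(Six2-EGFP/cre). The heterozygous Six2 Cre+/tg embryos were taken at E17.5, and their GFP-positive cells were sorted from the kidneys. In 4 libraries the mothers received 70% of the average daily food intake during pregnancy (restricted), and in 4 their food was not limited (unrestricted). Embryos of both diets carried the transgene, whose GFP and Cre are driven by Six2 regulatory sequence, and the sexes were not separated. Whether a library stands for 1 embryo, 1 litter or a pool is not given in the labels, and p-values therefore speak of the spread among libraries, which may be technical.

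Protocadherins are cadherin-type adhesion proteins of the cell surface, best known for giving single neurons distinct identities. In the alpha and gamma clusters each gene begins with its own long variable exon and promoter and is spliced to constant exons shared by the whole cluster, whereas the beta genes are single-exon genes. In neurons the variable promoters are chosen at random in each cell, with CTCF and cohesin bringing a promoter to a distant enhancer and with DNA methylation on promoters that are not used. The C-type genes at the downstream ends of the alpha and gamma clusters (Pcdhac1, Pcdhac2, Pcdhgc3, Pcdhgc4 and Pcdhgc5) are used more uniformly than the others.

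The gene table (RefSeq, GRCm38.p6, the coordinates of mm10) gave 58 genes: 14 alpha, 22 beta and 22 gamma. Each gene was read in a window of 2500 bp from its lower coordinate, clipped at the gene's end. In these clusters the genes differ in that coordinate and mostly share the upper one, so the window stands for the long variable exon or, for a beta gene, for most of the gene. At least 1 CpG was measured in the window of 27 genes: 6 of 14 alpha, 4 of 22 beta and 17 of 22 gamma genes. By type these were 18 of 31 variable, 4 of 22 beta and 5 of 5 C-type genes, and 25 windows held the 3 CpGs needed for a level. Pcdhb11 had 2 CpGs and Pcdhga10 had 1, and both were left out of the window results.

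No CpG of sufficient depth was found in the windows of Pcdha2, Pcdha4, Pcdha6, Pcdha7, Pcdha9, Pcdha10, Pcdha11 and Pcdha12, nor in those of Pcdhga6, Pcdhga7, Pcdhga12, Pcdhgb5 and Pcdhgb6. The beta genes Pcdhb3 to Pcdhb10, Pcdhb12 to Pcdhb16 and Pcdhb18 to Pcdhb22 were likewise not measured, so the beta cluster rests on few genes. The 8 libraries held 16045992 to 37305007 cytosine reads, and a member CpG had a median of 19 to 48 reads depending on the library. Restricted libraries 1 and 2 stood apart in how their reads were spread over CpGs: over all autosomal CpGs the level weighted by reads lay 2.24 and 3.28 percentage points under the mean over CpGs, against -0.575 to 0.817 points in the other 6 libraries. Cluster and window levels are therefore given as means over CpGs, and the diet counts hold without both libraries: 0 protocadherin tiles, CpGs, exon windows and upstream windows were then called. Cytosines of the mitochondrial genome, which is largely unmethylated, read as methylated in 0.0221% to 0.0854% of reads.

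The clusters were more methylated than the genome as this assay samples it, and the 3 clusters differed in level. The mean over member CpGs was 31.3% ± 0.493 (SD, n = 4) in restricted and 31.8% ± 0.922 in unrestricted libraries, against 16.2% in each diet over all autosomal CpGs. In the alpha cluster the restricted libraries measured 32.1%, 30.7%, 33.3% and 30.5%, and the unrestricted ones 31.8%, 33.6%, 31.8% and 30.7%. The beta cluster measured 60.3%, 56.1%, 60.2% and 57.4% with restriction and 61.5%, 62.5%, 57.7% and 56.0% without. The gamma cluster measured 27.8%, 28.7%, 27.0% and 27.2% with restriction and 28.6%, 29.0%, 27.4% and 28.1% without. In every library the beta cluster was the highest and the gamma cluster the lowest, while the 2 diets overlapped in each cluster.

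In the alpha and gamma clusters the type of exon separated the CpGs of exon windows more than the cluster did. The 199 CpGs of variable exon windows averaged 36.4% ± 0.800 in restricted and 36.9% ± 1.18 in unrestricted libraries (SD, n = 4 each), and 61.8% of these CpGs had a level between 20% and 80%. Over all autosomal CpGs that share was 6.67%. The 84 CpGs of C-type exon windows averaged 4.62% ± 0.303 and 5.23% ± 0.157, and 89.3% of them were below 20%. Libraries differed little in either class: variable windows ranged from 35.2% to 38.5% and C-type windows from 4.36% to 5.45%. The restricted libraries of the C-type class (4.36% to 4.96%) all lay under the unrestricted ones (5.08% to 5.45%), a difference of -0.609 points given without a test because the class is a mean over chosen members. Within each cluster the diets overlapped. The C-type windows of the alpha cluster measured 7.22% to 8.30% with restriction and 7.99% to 9.33% without. Those of the gamma cluster measured 0.901% to 2.26% and 1.37% to 2.15%. In the alpha cluster the 16 CpGs lying between exon windows measured 86.4% to 93.4% over the 8 libraries, above every library of the variable windows of that cluster (42.4% to 51.5%).

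**Figure D1:**
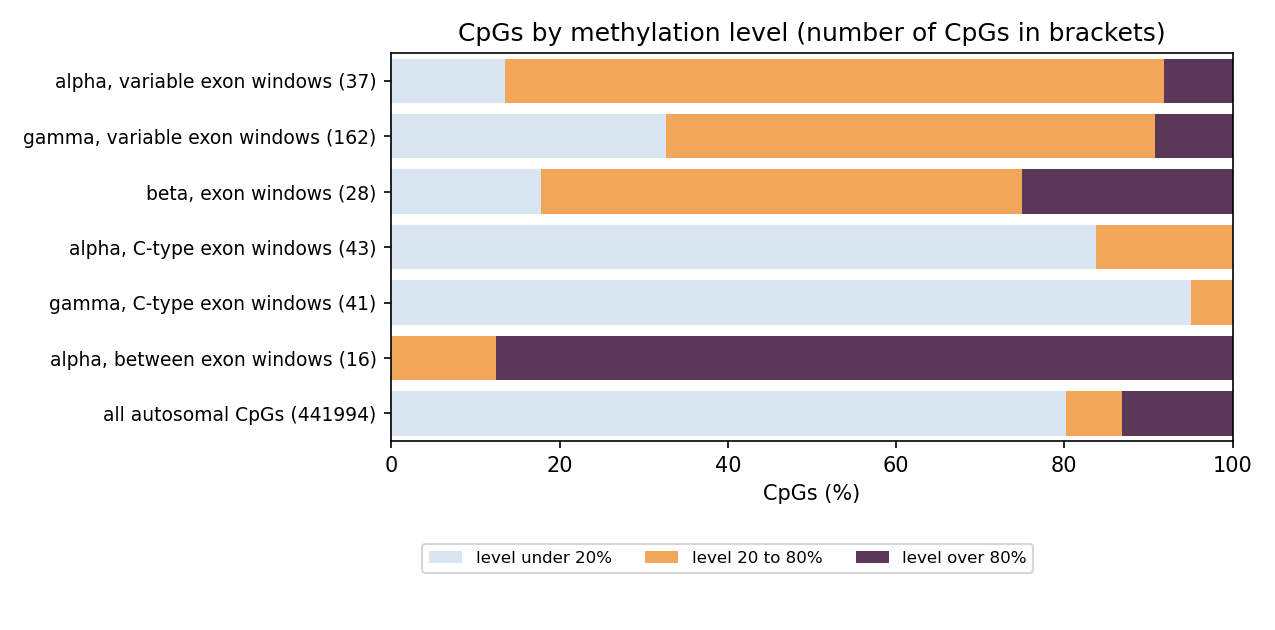
Share of CpGs (x axis, percent) with a mean level below 20%, from 20% to 80% and above 80%, for the classes of protocadherin CpGs and for all autosomal CpGs, with the number of CpGs in brackets. The variable exon windows are mostly intermediate, with 78.4% of alpha and 58.0% of gamma CpGs in the middle band, whereas only 6.67% of all autosomal CpGs are.

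At the level of genes, 14 of 17 variable windows and 2 of 3 beta windows lay between 20% and 80%. With Pcdhac1 and Pcdhgc5 of the C-type genes this made 18 of 25 windows (72.0%), against 8.51% of 8487 autosomal genes measured in the same window, which for other genes may be either end of the gene. The measured variable windows ranged from 14.6% in Pcdhga2 to 65.5% in Pcdhgb8, with a median of 39.7%. At the 5-read minimum, which admits more CpGs per gene, the same 17 windows ranged from 20.6% in Pcdhgb7 to 56.3% in Pcdha1 with the same median, and Pcdhga2 measured 49.6% over 13 CpGs where 7 CpGs had given 14.6%. The windows between 20% and 80% were then 22 of 25. These values hold for the CpGs this assay reached, whose place in the exon differed from gene to gene.

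Among the alpha genes the highest window was Pcdha3 (18, 36946088 to 36948587), a variable gene of the cluster. Its 4 CpGs measured 70.3%, 66.1%, 68.8% and 60.0% in the restricted libraries and 63.9%, 69.1%, 58.3% and 63.9% in the unrestricted ones. The diets overlapped, and with the 5-read minimum, which admits 16 CpGs, the window fell to 43.0%. Pcdha8 (36992467 to 36994966) varied most between libraries, with a mean of 45.9% ± 6.44 (SD, n = 8). It measured 45.2%, 37.4%, 56.5% and 50.2% with restriction and 41.9%, 51.9%, 42.8% and 41.0% without, so the largest and the smallest value both came from restricted libraries.

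In the beta cluster Pcdhb2 was the highest and Pcdhb1 the lowest of the 3 windows. Pcdhb2 (37294840 to 37297339, 6 CpGs) measured 80.7%, 78.7%, 78.5% and 81.6% with restriction and 84.5%, 82.5%, 82.2% and 78.8% without. Pcdhb1 (37264998 to 37267454, 11 CpGs) measured 39.7%, 34.9%, 43.1% and 37.9% with restriction and 38.4%, 44.0%, 36.3% and 35.8% without. Pcdhb2 was above Pcdhb1 in all 8 libraries. At a minimum of 20 reads the Pcdhb1 window averaged 14.4%, the level of its CpGs in the first 500 bp, and that of Pcdhb2 85.3%. Pcdhb17 (37485021 to 37487520, 9 CpGs) had the largest spread of the cluster at 68.4% ± 3.50.

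Among the gamma genes the highest window was that of Pcdhgb8 (37761801 to 37764300), listed as a transcribed pseudogene, with 65.5% ± 2.57 (SD, n = 8) over 3 CpGs. With the 5-read minimum it held 14 CpGs and averaged 35.5%, so its rank depends on which CpGs are read. Of the variable gamma genes, the 8 of the A type had a median of 28.3% and the 5 of the B type a median of 40.9%, with ranges that overlapped. At the 5-read minimum the same genes had medians of 37.2% and 35.5%, so the order of the types turned with the CpGs read. Pcdhga1 (37661775 to 37664274, 13 CpGs) measured 16.9%, 31.5%, 21.1% and 18.1% with restriction and 15.9%, 23.7%, 21.9% and 18.2% without. Restricted library 2 was the high value, the shallowest library of the series.

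**Figure D2:**
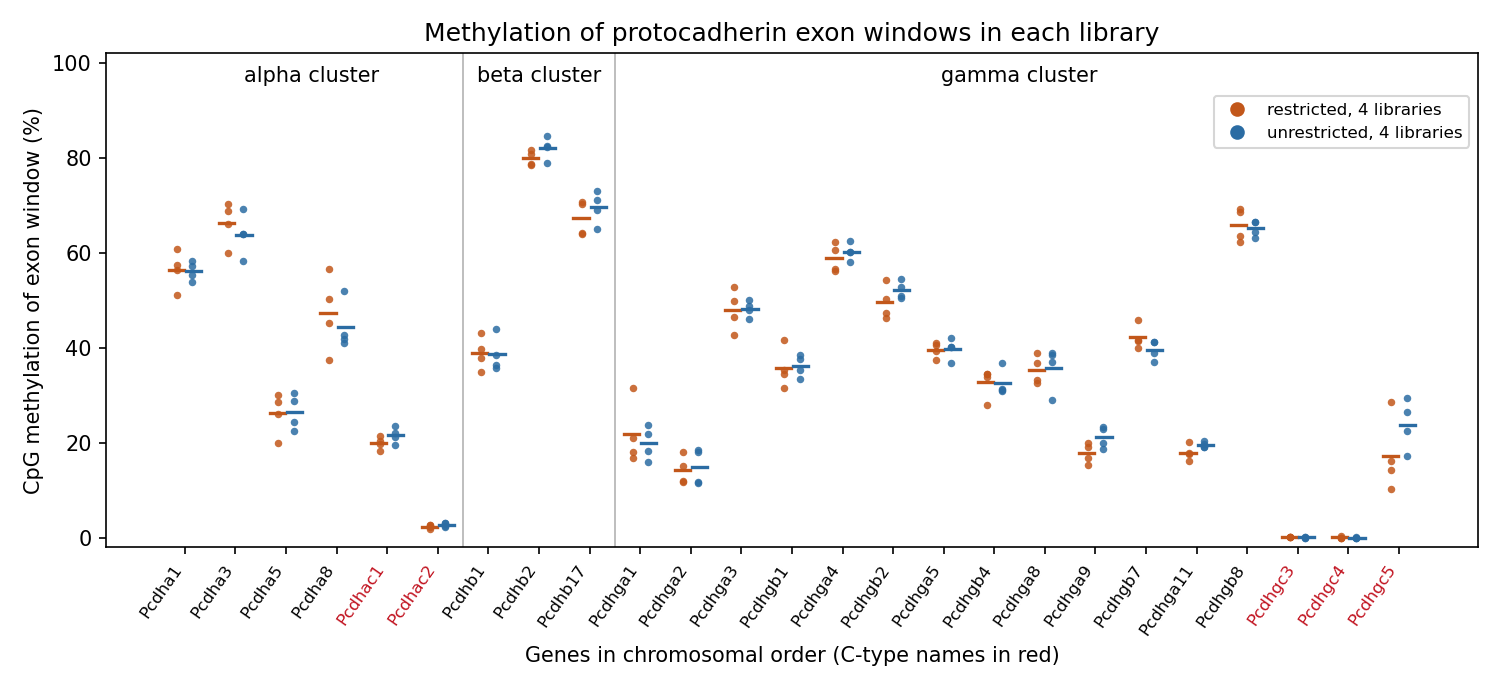
Methylation (y axis, percent) of the 25 exon windows in chromosomal order, with a point for each of 4 restricted and 4 unrestricted libraries and a line at each diet's mean. The C-type genes Pcdhac2, Pcdhgc3 and Pcdhgc4 lie near 0%, whereas the variable and beta windows spread from 14.6% to 80.9%, and libraries of the 2 diets lie among each other in every window but that of Pcdhgc3.

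The 5 C-type genes split into near-unmethylated and intermediate windows. Pcdhgc3 (37806410 to 37808909, 28 CpGs) measured 0.274%, 0.217%, 0.228% and 0.245% with restriction and 0.070%, 0.187%, 0.176% and 0% without. The groups did not overlap, with a difference of 0.133 points, where mitochondrial cytosines read as methylated in up to 0.0854% of reads. By pooled reads the difference was 0.114 points (p = 0.187, adjusted p = 0.724, quasi-binomial model). The lowest restricted library was then at 0.201% and the highest unrestricted one at 0.190%. The library at 0% had 1610 reads summed over the 28 CpGs, where a read covering several CpGs counts at each. Taken as independent, they allow up to 0.186%, a limit that is too narrow where reads are shared. Pcdhgc4 (37815079 to 37817578, 10 CpGs) had no methylated read in 6 libraries, where the reads, counted in the same way, allow 0.588% to 1.83%. Pcdhac2 (37143678 to 37146177, 30 CpGs) averaged 2.55% ± 0.460 (SD, n = 8), and 3.86% at a minimum of 20 reads.

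The other C-type genes were higher. Pcdhac1 (37090136 to 37092635, 13 CpGs) averaged 20.8% ± 1.65 (SD, n = 8), with libraries from 18.3% to 23.5%. In the 1000 bp before it, its 14 CpGs averaged 1.23% ± 0.341, so the exon window was above the promoter side in every library. No step lay at the gene start itself. The CpG 11 bp before the start averaged 4.92% and the CpG 19 bp after it 3.93%. Pcdhgc5 (37819546 to 37822045) averaged 20.6% ± 7.13, but its 3 CpGs lay 2421 to 2473 bp from the gene start, far from those of the other C-type genes. With the 5-read minimum 8 CpGs were read there, and the mean was 56.9%.

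Variable and C-type genes were also compared at matched distance from the gene start. In the first 500 bp, 95 CpGs of 11 variable genes averaged 24.9% (22.7% to 27.4% over libraries) and 33 CpGs of 4 C-type genes averaged 3.35% (2.94% to 3.91%). Pcdhac1 was the exception among these 4, at 18.1% ± 1.49 (SD, n = 8), above Pcdhga2 (14.6%) and Pcdhgb4 (15.0%) and within the 12.6% to 45.9% of the 10 variable genes with 3 or more CpGs there, while Pcdhac2, Pcdhgc3 and Pcdhgc4 lay at 0.119% or lower. Between 500 and 999 bp the variable genes were at 35.8% and the C-type genes at 0.879%, and between 1000 and 1499 bp at 65.5% and 3.33%. The ranges of these means over libraries did not overlap, and Pcdhac1 has no CpG in the last 2 of these bins. From 1500 to 1999 bp 1 variable gene was at 39.9% and 1 C-type gene at 23.1%. From 2000 to 2499 bp 3 variable genes were at 58.3% and 1 C-type gene at 20.6%. Different genes contribute CpGs to each distance, so the change along the exon was also read within genes.

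Of 11 genes with at least 2 CpGs on each side of 500 bp, 8 were more methylated beyond it in all 8 libraries. Pcdhga3 went from 26.4% ± 3.92 to 87.1% ± 3.98 (SD, n = 8), Pcdhb1 from 14.4% ± 4.66 to 81.4% ± 2.40 and Pcdhga8 from 28.6% ± 4.14 to 60.7% ± 6.56. Pcdha5 went the other way in all 8 libraries, from 35.7% ± 6.49 to 21.0% ± 2.68. Pcdhgc3 and Pcdhgc4 stayed near 0% on both sides.

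**Figure D3:**
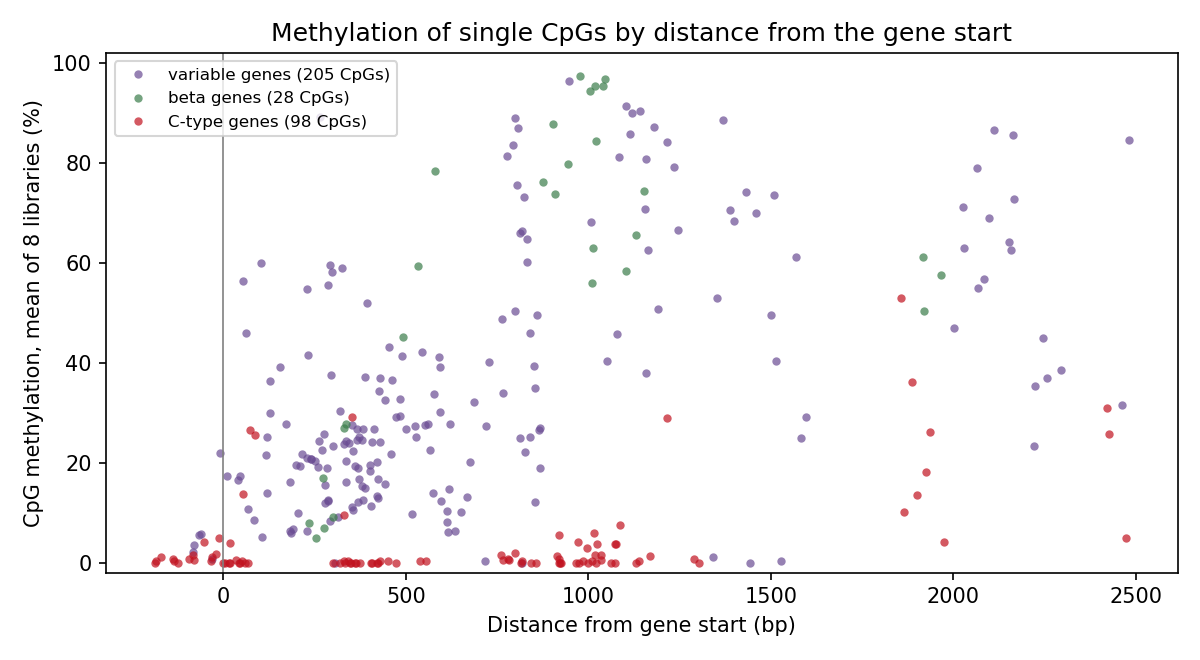
Methylation of single CpGs (y axis, percent, mean of 8 libraries) by their distance from the gene start (x axis, bp) for variable, beta and C-type genes. Points of variable genes rise from a mean of 24.9% in the first 500 bp to 65.5% between 1000 and 1499 bp, while C-type genes have means of 3.35% and 3.33% at these distances. Farther out, from 1500 to 1999 and from 2000 to 2499 bp, variable genes have means of 39.9% and 58.3% and C-type genes of 23.1% and 20.6%.

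Across libraries the pattern of windows was stable. Over the 25 windows the Pearson correlation of 2 libraries lay between 0.956 and 0.993 for the 28 pairs, and between 0.934 and 0.991 over the 20 windows that are not C-type. These correlations are across windows that share a library and a genome, and windows are not independent replicates.

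The comparison the study's design implies is that between the mother's diets. Each unit was tested by a quasi-binomial logistic model with Benjamini-Hochberg adjustment over all autosomal units of its kind. No protocadherin tile, CpG, exon window or upstream window passed an adjusted p of 0.05. Of 34 tiles 0 were called, where 0.0177% of all 33897 tiles were, and 2 had an unadjusted p under 0.05 (background 6.32%), both lower with restriction (background 3.32%). Of 321 tested CpGs 0 were called (background 0.0997%), and 17 had an unadjusted p under 0.05 (background 5.62%), 13 lower with restriction (background 2.73%) and 4 higher. Of 25 exon windows 0 were called (background 0.0515%), and 2 had an unadjusted p under 0.05 (background 6.39%), both lower (background 3.75%).

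Of the 2 upstream windows 0 were called (background 0%) and 0 had an unadjusted p under 0.05 (background 6.23%, or 3.11% in the lower direction). The shares of members at an unadjusted p under 0.05 were thus near the background for tiles and CpGs. By limma on M-values no member was called, with 1 tile, 16 CpGs, 1 exon window and 0 upstream windows at an unadjusted p under 0.05, and the background of calls was 0% for all 4 kinds. By edgeR no member was called either, with 7 CpGs and no tile or window at an unadjusted p under 0.05, where the background of calls was 0.325% of tiles, 0.048% of CpGs, 0.309% of exon windows and 0.14% of upstream windows. Groups that did not overlap occurred in 1 of 34 tiles (background 2.26%), 4 of 321 CpGs (1.8%), 1 of 25 exon windows (2.01% by reads, 1.85% by means over CpGs) and 0 of 2 upstream windows (1.63%).

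**Figure D4:**
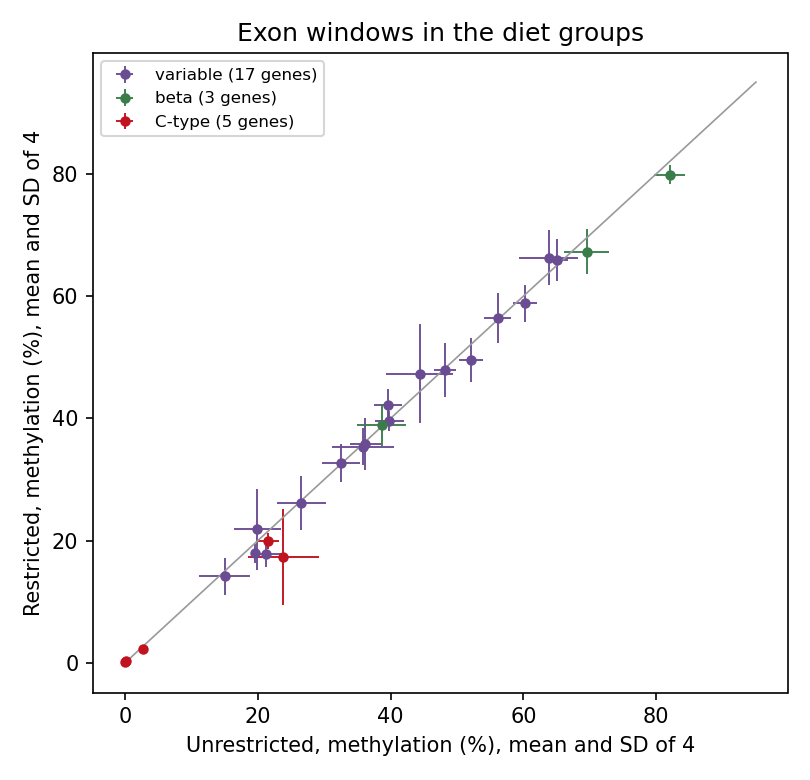
Mean methylation of each exon window in restricted (y axis, percent) against unrestricted libraries (x axis, percent), with SD of 4 libraries as bars and a line of equality. The windows lie along the line, and the largest departures by means over CpGs are -6.53 points in Pcdhgc5 and -3.36 points in Pcdhga9.

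The smallest p among exon windows belonged to Pcdhga3 (37674335 to 37676834, 14 CpGs). By pooled reads it measured 39.2%, 45.1%, 43.0% and 49.0% with restriction and 50.6%, 48.8%, 49.9% and 52.1% without, a difference of -6.25 points (p = 0.00185, adjusted p = 0.387, quasi-binomial model). Only restricted library 4 reached into the range of the unrestricted libraries. Averaged over CpGs the difference was -0.279 points. The 5 CpGs beyond 500 bp, where the gene was most methylated, took 22.0% to 36.2% of its reads with restriction and 35.6% to 41.4% without, with restricted libraries 1 and 2 at the lowest shares (22.0% and 22.5%). Without these 2 libraries the difference was -4.32 points (adjusted p = 0.795, quasi-binomial model).

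Pcdhga11 (37755773 to 37758272, 19 CpGs) had the second smallest p. By pooled reads it measured 14.8%, 16.7%, 17.7% and 17.0% with restriction and 20.7%, 19.1%, 17.6% and 18.9% without, -2.49 points (p = 0.0187, adjusted p = 0.724, quasi-binomial model), with overlapping groups. Without restricted libraries 1 and 2 its difference was -1.70 points. Pcdhga9 (37736936 to 37739435, 20 CpGs) measured 19.0%, 19.1%, 14.3% and 16.7% with restriction and 22.1%, 20.0%, 20.3% and 18.9% without, -3.06 points (adjusted p = 0.724 in the same model), and -4.84 points without restricted libraries 1 and 2. The tiles of smallest p were the tile at 37755001 in Pcdhga11 (12 CpGs, -2.49 points), the tile at 37686001 in Pcdhga4 (14 CpGs, -2.87 points) and the tile at 37737001 in Pcdhga9 (20 CpGs, -3.06 points). Their adjusted p was 0.766, 0.773 and 0.773 in that model. The Pcdhga4 tile differed by -1.60 points without restricted library 1 and by -0.704 points at a minimum of 20 reads, and the Pcdhga11 tile by -1.64 points without restricted library 2.

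The single CpGs of smallest p lay at 37694902 in Pcdhga5, 37755783 in Pcdhga11 and 37822019 in Pcdhgc5. The CpG of Pcdhga11 lay 10 bp from the gene start and measured 10.1%, 10.7%, 12.2% and 14.8% with restriction and 24.4%, 19.1%, 23.3% and 23.2% without. Its groups did not overlap, and the adjusted p was 0.622 in the quasi-binomial model. The CpG of Pcdhga5 was 11.1 points higher with restriction (7.37 without restricted library 1, 17.0 without restricted library 4 and 4.75 without restricted libraries 1 and 2), with overlapping groups. That of Pcdhgc5 was 6.96 points lower (-3.98 points without unrestricted library 2), with overlapping groups, and both had the same adjusted p. The other CpGs whose groups did not overlap, chosen after their values were seen, were at 37695193 in Pcdhga5 (-14.7 points), 37721836 in Pcdhgb4 (9.42 points) and 37756600 in Pcdhga11 (-12.4 points). The tile without overlap, also named after its values were seen, was at 37045001 between alpha exons (-4.20 points).

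The upstream windows were those of Pcdhac1, described above, and Pcdhga11. Pcdhga11 measured 6.91%, 5.24%, 8.29% and 7.04% with restriction and 5.21%, 5.43%, 5.49% and 9.06% without, with overlapping groups. By pooled reads its difference was -0.331 points (adjusted p = 0.942, quasi-binomial model), with the opposite sign, 0.573 points, when CpGs were averaged. For Pcdhac1 the difference was -0.0707 points (adjusted p = 0.995 in the same model).

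The spread between libraries of the same diet was described by the dispersion, which is 1 where libraries differ only by the counting error of independent reads. Reads of a tile or window were summed over its CpGs, and a read covering several CpGs counts at each. A value above 1 can therefore not be read as a difference between libraries alone. Its median was 1.32 over the 34 protocadherin tiles and 1.02 over all tiles. Among tiles between 20% and 80% it was 1.67 over 19 protocadherin tiles and 1.38 over 5314 tiles. In the same band the members were not above the background for the other units. The medians there were 1.66 for protocadherin exon windows and 1.76 for all, and 1.06 for protocadherin CpGs and 1.09 for all. For tiles of this band the median SD was 3.56 points for protocadherin tiles and 5.12 points for all. Their reads in the shallowest library, summed over the CpGs of a tile, had medians of 152 and 61. Per CpG of this band the median was 14 reads both for members and for all. The highest tile dispersions were 8.20 in Pcdhga1, 6.35 in Pcdha8 and 4.59 in the tile at 36980001 between alpha exons. Without restricted library 3 the median over members was 1.00, close to 0.993 over all tiles.

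**Figure D5:**
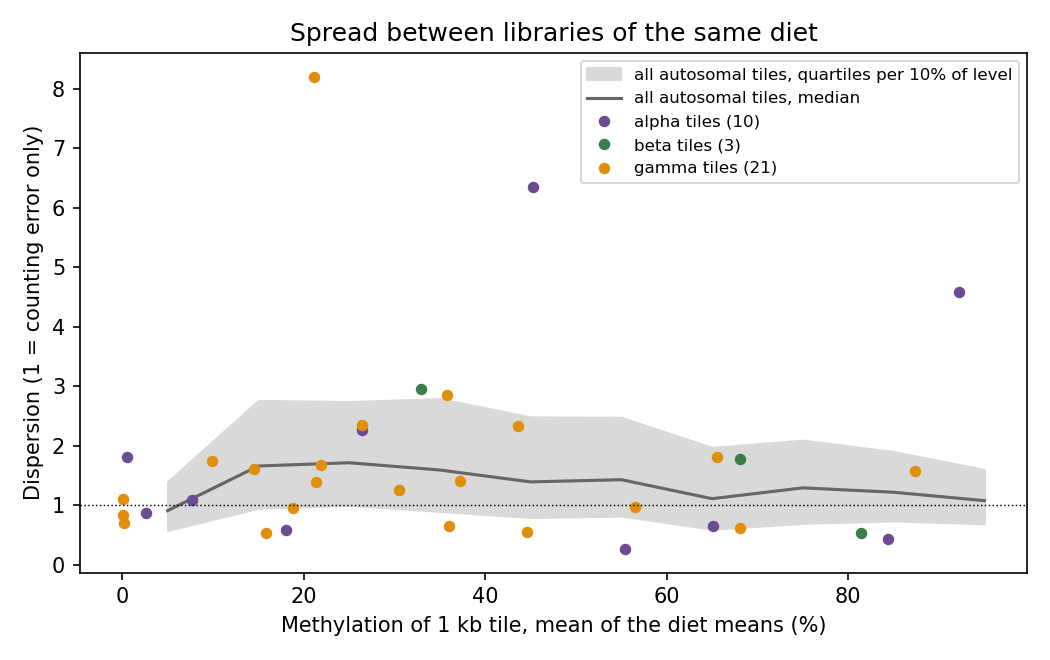
Dispersion between libraries of the same diet (y axis, 1 is the counting error of independent reads) against methylation (x axis, percent) for 34 protocadherin tiles, with the median and quartiles of all autosomal tiles by level in grey. The tiles of Pcdhga1 (8.20) and Pcdha8 (6.35) lie far above the grey band.

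Genes related to the clusters by sequence or by control were read in the same fit. Of 78 tiles at non-clustered protocadherins and related large cadherins 0 were called (background 0.0177%), and 2 had an unadjusted p under 0.05 (background 6.32%). Their median level was 1.84%, and 8 of 78 tiles (10.3%) lay between 20% and 80%, where 19 of 34 clustered tiles (55.9%) did. The smallest p values were in Celsr1 (15, 86034001 to 86035000, -0.255 points), Fat1 (8, 44937001 to 44938000, 0.147 points) and Fat2 (11, 55314001 to 55315000, -6.03 points), each with an adjusted p of 0.773 in the quasi-binomial model. Celsr1 codes for a cadherin of planar cell polarity, and Fat1 and Fat2 for very large cadherins.

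Genes known to act on the clusters, such as Ctcf, the cohesin subunits and the DNA methyltransferases, held 37 tiles. Of these 0 were called (background 0.0177%) and 3 had an unadjusted p under 0.05 (background 6.32%). These were in Rest, a repressor of neuronal genes (5, 77268001 to 77269000, 3.05 points, and 77260001 to 77261000, 5.52 points), and in Setdb1, a histone methyltransferase (3, 95356001 to 95357000, -1.42 points). Their adjusted p was 0.766, 0.773 and 0.769 in the same model. Methylation at these genes does not measure their expression.

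Tiles at marker genes of the sorted cells and of others that a gate could hold were also counted, and their methylation does not measure the cell mixture. Over all autosomal tiles 0.0177% were called and 6.32% had an unadjusted p under 0.05. None was called among 45 tiles of nephron progenitor markers, where 1 had an unadjusted p under 0.05 (Wt1, -3.95 points). None was called among 17 tiles of stroma, 18 of ureteric bud, 3 of endothelium and 1 of blood markers, with 1, 2, 0 and 0 at an unadjusted p under 0.05. Osr1 (-0.778 points) and Pax2 (-0.431 points) had the next smallest p of the progenitor markers, with an adjusted p of 0.773 in the quasi-binomial model. Among the others the smallest p belonged to Meis1 (-7.35 points), Col1a1 (7.38 points) and Pdgfra (0.578 points) for stroma, to Wnt11 (0.240 points) and Gata3 (0.441 and 0.0992 points) for ureteric bud, to Pecam1 (4.25 and -0.378 points) and Cdh5 (-2.70 points) for endothelium, and to Ptprc (-8.99 points) for blood.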

How the data were processed

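Reduced representation bisulfite libraries of 8 samples were analysed. Per the submitters' processing notes, Trim Galore 0.3.3, cutadapt, FastQC, Bismark 0.13.1 and methylKit were used with mm10. The files the authors deposited hold, for each cytosine of a CpG, the read count and the percent of reads methylated and unmethylated; per the labels the libraries were spread over several lanes.

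The strands of a CpG were merged, methylated reads were rounded from count and percent (whole within 0.0488 reads up to 1000 reads), and CpGs below 10 reads in any library were dropped. Tiles of 1 kb, exon windows of 2500 bp and upstream windows of 1000 bp needed 3 CpGs. The level of a class, cluster or window is the mean over its CpGs, and tests used pooled reads. Each unit was fitted with a quasi-binomial logistic model with a dispersion moderated as in limma and not under 1, and Benjamini-Hochberg adjustment over all autosomal units. The test was checked on simulated data, where at single CpGs of high depth it called more unchanged sites than its nominal rate. Python 3.11.15, numpy 2.4.6, scipy 1.17.1, pandas 2.3.3, R 4.3.3, limma 3.58.1 and edgeR 4.0.16 were used. The RefSeq table of gene positions used has no columns for strand or exons.

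The members and the lists (non-clustered protocadherins, regulators of the clusters, markers of nephron progenitors, stroma, ureteric bud, endothelium and blood) were chosen with earlier results of these data known. Genes named were the 5 C-type genes, the highest, lowest and most variable window of each cluster, and the 3 units of each kind, and 3 tiles of each list, with the smallest p. Intervals and limits for 0 reads (3 reads over the total summed over CpGs) cover counting error only and treat these reads as independent. A read covering several CpGs counts at each, and reads carry no molecular identifiers. Alternatives were other coverage minimums, tile sizes, window lengths and CpG minimums, limma, edgeR, an unmoderated dispersion, a replicate block, a limit on extreme coverage and leaving out libraries.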

Additional observations from a re-analysis of the deposited data

Results flagged for a closer look

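In each diet group of 4 libraries, a window was listed where the highest or lowest library lay far from the other 3 for the range of the group, and 6 of 60 groups met this. Chance gives about 1 in 20 where values vary continuously, which does not apply to the 2 groups of Pcdhgc4, where 3 libraries were at 0% and any methylated read in the other meets the criterion. In Pcdha8 unrestricted library 2 measured 51.9%, where the others lay between 41.0% and 42.8%. In Pcdhgb4 restricted library 4 measured 28.0%, where the others lay between 33.8% and 34.5%, and unrestricted library 2 measured 36.7%, where the others lay between 30.9% and 31.3%. In Pcdhgc4 restricted library 1 (0.357%) and unrestricted library 1 (0.175%) held the methylated reads of their groups, with 0% in the others. In the window before Pcdhga11 unrestricted library 4 measured 9.06%, where the others lay between 5.21% and 5.49%.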

How the results depend on the processing

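Leaving out each library in turn, restricted libraries 1 and 2 together, or using limma, edgeR, other tile sizes, window lengths or CpG minimums left 0 calls among tiles, CpGs, exon windows and upstream windows. Removing single libraries moved the restricted minus unrestricted difference of the alpha cluster between -0.849 and 0.239 points, of the beta cluster between -2.03 and 0.127 and of the gamma cluster between -0.973 and -0.382. The median dispersion of protocadherin tiles ranged from 1.00 to 1.38. With a coverage minimum of 5 reads 1 of 566 member CpGs was called, where 245 of 339342 CpGs (0.0722%) were. This CpG lay at 36948158, in the exon window of Pcdha3, and had 8 to 33 reads. It measured 14.9% ± 11.6 with restriction and 0% without (SD, n = 4). The difference was 14.9 points (adjusted p = 0.0322, quasi-binomial model over all CpGs). The alpha difference was -1.99 points when weighted by reads, where the mean over CpGs gave -0.302. The gamma difference was 0.223 points at a minimum of 20 reads, where the minimum of 10 gave -0.628. At a minimum of 5 reads the alpha and beta differences were 0.448 and 0.586 points, where the minimum of 10 gave -0.302 and -0.901. That of gamma was -0.621 points at 5 reads. The cause was not tested.

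The deviations of same-numbered libraries correlated at 0.0154, -0.106, -0.0463 and 0.0194. Such values show no shared signal, but they cannot tell whether the replicate numbers pair the libraries. With the replicate block 0 members were called. The median dispersion was then 1.00 over protocadherin tiles and 0.804 over all tiles. At a minimum of 20 reads the Pcdhga3 exon window differed by 0.957 points, opposite to the value at 10 reads. The tile at 37674001, which holds its 9 CpGs in the first 500 bp, differed by the same 0.957 points at 10 reads. The window values at 10 and 20 reads thus came from different sets of CpGs. The window before Pcdhga11 turned to 0.326 without restricted library 2, 0.505 without unrestricted library 4 (-0.969 to 0.505 over single removals), 0.705 without restricted libraries 1 and 2 and 0.573 by the mean over CpGs. The window before Pcdhac1 turned to 0.00324 with limma (M-value scale), 0.048 without restricted library 2, 0.089 without unrestricted library 2 (-0.286 to 0.089 over single removals) and 0.018 by the mean over CpGs. Window levels at 5 and 20 reads and means over CpGs were added after seeing the data. Which difference the medians of 19 to 48 reads at member CpGs could show was not tested.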
